A study of Homo sapiens with 36 samples.

Results

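The isolated H3K27ac regions of SUM-229PE cells were the 1611 intervals, of 57075 listed for untreated POS and NEG cells, whose nearest other listed interval on the same chromosome lay more than 100000 bases away. They were chosen by position only, with no measured value, and made up 2.82% of the list. SUM-229PE is an established triple-negative breast cancer cell line, and its POS (EpCAM+ CD49f+) and NEG (EpCAM- CD49f-) cells were separated by fluorescence-activated sorting for these surface proteins. Chromatin immunoprecipitation and sequencing for H3K27ac, acetylation of histone H3 at a lysine, was carried out on 22 libraries, and for the transcription factor JUNB on 4 libraries. The H3K27ac groups were POS with DMSO, the vehicle (n = 3), and NEG with DMSO (n = 2). Acute treatment was 30 nM trametinib for 24 hours in POS (n = 3) and in NEG (n = 2). Chronic treatment was 10 nM trametinib sampled at day 14 and set against day 0, with 2 libraries per day in each subpopulation. POSR cells, in 2 sets named POSR1 and POSR2 (2 libraries each), were compared with the 3 POS DMSO libraries. No label explains these 2 names. JUNB was measured in DMSO-treated POS and NEG cells only, with 2 libraries each. All libraries come from 1 cell line. Whether replicates came from separate cultures is not stated, and the spread behind each p-value may therefore be technical.

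H3K27ac is deposited by acetyltransferases at active promoters and enhancers, and most acetylated intervals lie in clusters around transcribed genes. A single interval far from any other is found where genes are sparse or where 1 distal element stands alone. JUNB is a subunit of AP-1, a dimeric factor that binds enhancers and is induced through the MEK and ERK kinases, and trametinib inhibits MEK. Each H3K27ac interval was 1001 bases wide and each JUNB interval 201 bases (end minus start), on build hg19. No annotation of that build was at hand, so no region was assigned to a gene, exon or intron. Isolation holds only for intervals of the POS and NEG list: 1157 of the 1611 had a separate interval of at least 1 of the other 5 H3K27ac lists within 100000 bases, and 454 (28.2%) had none. No source used here gives how many intervals the authors left out of the list.

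The isolated regions lay a median of 144293 bases from the nearest other region, against 9553 bases for all regions, and a median of 272440 bases from the neighbour on the farther side. The distance was 100000 to 150000 bases for 859 of them, over 200000 for 421, over 500000 for 42 and over 1000000 for 8. The farthest, chr21:9594417-9595418, had its nearest neighbour 5746682 bases away. The next was chr19:24269687-24270688, at 3996156 bases, and the third was chr13:57438112-57439113, at 2220517 bases. Just inside the limit stood chr13:43294518-43295519 at 100021 bases, and just outside it chr1:197644353-197645354 at 99991 bases. Isolated regions were found on 23 chromosomes. Their share of a chromosome's regions was highest on chromosome X, where 130 of 1622 regions (8.01%) were isolated, and on chromosome 13, with 78 of 1290 (6.05%). It was lowest on chromosome 22, with 14 of 891 (1.57%).

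Most isolated regions were weak by the level of the list. Levels are given as counts scaled to a library of 1000000 counts in the listed regions (CPM), after scaling by the trimmed mean of M-values. The mean of the POS and NEG levels had a median of 6.39 CPM in isolated regions and 9.79 CPM over all regions, and the upper quartile was 11.1 against 20.3 CPM. When all regions were cut into 5 equal groups by level, 607 isolated regions (37.7%) fell in the lowest group, at 0.841 to 5.05 CPM, and 108 (6.70%) in the highest, at 24.5 CPM and above. This set the precision: the median count per isolated region was 28 to 47 per library, against 46 to 68 for all regions. A few strong regions stood apart from the rest.

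**Figure D1:**
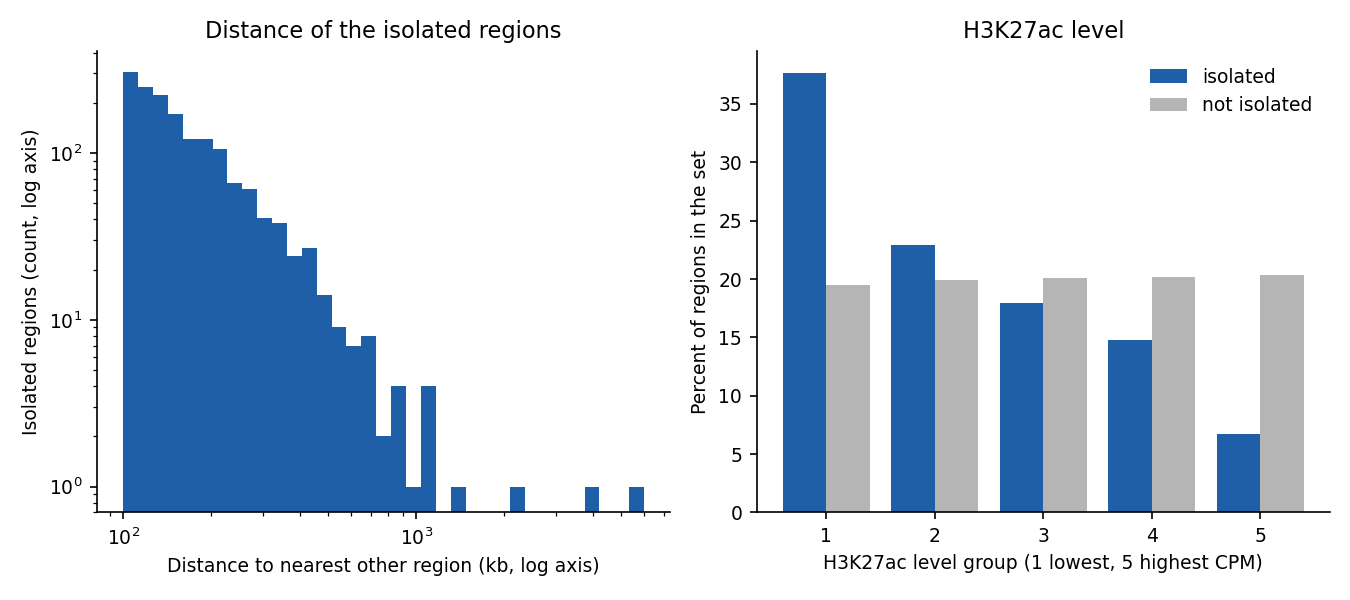
Left, distance from each of the 1611 isolated regions to the nearest other listed region (kb, log axis) against the number of regions (log axis). Right, percent of isolated (blue) and of other regions (grey) in each of 5 equal groups by H3K27ac level, where 37.7% of isolated regions sit in the lowest group and 6.70% in the highest.

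The most acetylated isolated region was chr1:36102872-36103873, at 174, 115 and 145 CPM in the POS libraries and 117 and 114 CPM in the NEG libraries. The POS and NEG ranges overlapped, and the difference was 0.33 ± 0.22 on the log2 scale (SE, adjusted p = 0.18, edgeR quasi-likelihood test with Benjamini-Hochberg adjustment). The next, chr3:169489865-169490866, read 143, 100 and 109 CPM in POS and 116 and 107 CPM in NEG, again overlapping. Both were strong in both subpopulations. The other 3 were not shared equally. Region chr9:21293723-21294724 read 145, 129 and 141 CPM in POS against 13.3 and 13.1 CPM in NEG, and chr1:151167684-151168685 read 143, 102 and 128 CPM against 56.4 and 60.5 CPM. In both regions every POS library lay above every NEG library. Region chr19:56825928-56826929 went the other way, at 53.1, 36.9 and 40.9 CPM in POS and 131 and 133 CPM in NEG.

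Most isolated regions differed between untreated POS and NEG cells. Of 1606 tested, 725 (45.1%) were higher in POS and 581 (36.2%) were higher in NEG at an adjusted p under 0.05, while over all 57023 tested regions 38.6% were higher in POS and 38.0% in NEG. In all, 81.3% of isolated regions and 76.5% of all regions were called. The differences were large: the median size was 1.78 on the log2 scale in isolated regions and 1.28 over all regions, and 1127 isolated regions (70.2%) were called at 2-fold or more against 59.5% of all regions. The calls without any overlap between POS and NEG libraries made up 45.1% (higher in POS) and 36.1% (higher in NEG) of isolated regions tested, and 38.5% and 37.5% of all regions tested. The list may favour such regions: each interval carries the name of 1 POS or NEG library, a POS library for 898 isolated regions (55.7%) and for 48.7% of all regions. A lower level in 1 subpopulation may reflect fewer cells with the mark or less of it per cell, which bulk libraries cannot tell apart.

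Isolated regions higher in POS outnumbered those higher in NEG in 4 of the 5 level groups. In the lowest level group 44.2% of isolated regions were higher in POS and 33.2% in NEG, against 29.3% and 35.6% of regions that were not isolated. In the highest group the order turned, with 38.0% of isolated regions higher in POS and 41.7% higher in NEG, against 44.1% and 32.2% of the others. The share called was larger in the farther distance bands, from 76.3% at up to 10000 bases to 79.9% at 100000 to 150000 bases, 84.4% at 200000 to 500000 bases and 88.1% of the 42 regions beyond 500000 bases. These bands were not tested against each other.

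**Figure D2:**
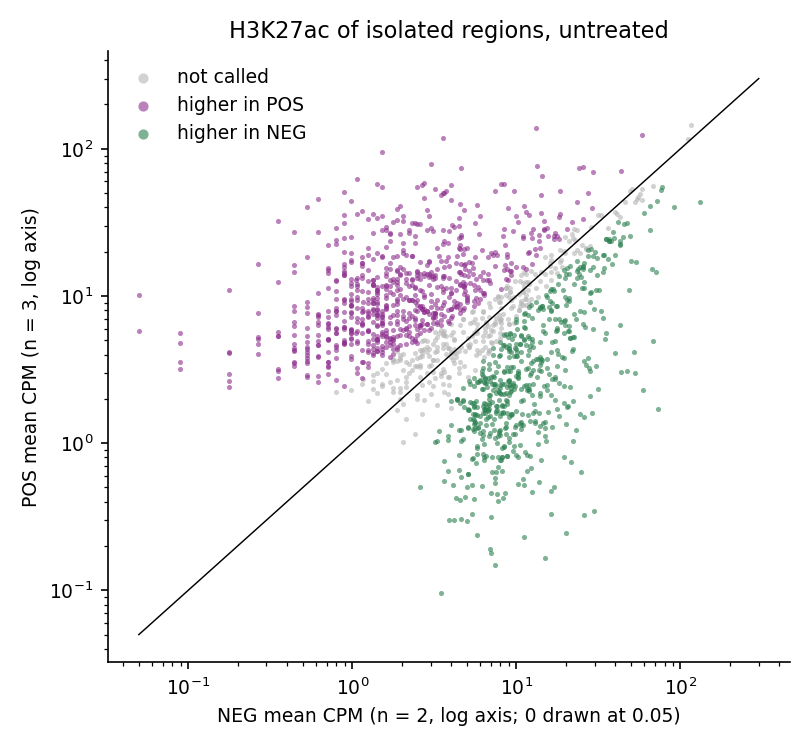
Mean H3K27ac level of each isolated region in NEG (x axis, n = 2) and POS (y axis, n = 3) untreated cells, in CPM on log axes, with the diagonal as equality and values of 0 drawn at 0.05. The 725 regions called higher in POS (purple) and the 581 called higher in NEG (green) lie on either side of the uncalled regions (grey).

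Among the isolated regions higher in POS, chr3:154182053-154183054 read 113, 83.9 and 89.4 CPM in the POS libraries and 0.712 and 2.31 CPM in the NEG libraries. It lay 220480 bases from its nearest neighbour, and its log2 fold change was 5.97 ± 0.33 (SE, adjusted p = 2.1e-18, edgeR). Region chr7:49334165-49335166 read 71.6, 49.9 and 66.0 CPM against 1.42 and 0.709 CPM. In both, the mark was close to absent from NEG cells while POS libraries stood among the strongest isolated regions. Region chr4:36553079-36554080 read 50.1, 40.7 and 46.6 CPM in POS and 0.356 and 0.887 CPM in NEG. Region chr21:41629875-41630876, 623860 bases from any neighbour, read 48.4, 36.1 and 35.6 CPM against 0.889 and 0.177 CPM. The remaining pair, chr11:119926308-119927309 and chr9:103501356-103502357, averaged 32.5 ± 7.77 and 27.1 ± 1.22 CPM in POS (SD, n = 3) and under 1 CPM in NEG. All 6 had log2 fold changes of 5.85 to 6.45. A further pair of regions, singled out after their values were seen, had no count in either NEG library. They were chrX:48038632-48039633, at 10.2 ± 2.31 CPM in POS (at least 38.2-fold above a floor of 3 counts over both NEG libraries), and chrX:8597370-8598371, at 5.74 ± 1.03 CPM (at least 21.5-fold).

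On the NEG side, chr20:21961700-21962701 read 69.6 and 76.8 CPM in the NEG libraries and 1.52, 2.30 and 1.27 CPM in the POS libraries. Its log2 fold change of POS over NEG was -5.46 ± 0.23 (SE, adjusted p = 5e-21, edgeR), and it lay 358859 bases from its nearest neighbour. Region chrX:111879594-111880595 read 26.5 and 32.8 CPM in NEG, with no count in 2 POS libraries and 1.04 CPM in the third. Region chrX:124423200-124424201 read 28.1 and 23.4 CPM in NEG and 0.127 to 0.636 CPM in POS. Both lie on chromosome X. There 56 of 130 isolated regions (43.1%) were higher in POS and 49 (37.7%) in NEG. Of the regions not isolated on that chromosome, 34.6% were higher in POS and 44.5% in NEG. The other 3, chr3:74168289-74169290, chr13:94427357-94428358 and chr2:5836960-5837961, had NEG means of 20.2, 15.0 and 16.2 CPM, with POS means under 1 CPM. No POS library of these 6 regions reached a NEG library, which the rule for naming regions required.

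The balance of POS and NEG varied between chromosomes, here chosen after their values were seen. On chromosome 12, 46 of 70 isolated regions were higher in POS and 15 in NEG, whereas 34.3% of the regions not isolated there were higher in POS and 41.2% in NEG. Chromosome 17 had 22 of 33 isolated regions higher in POS and 3 in NEG. On chromosome 19 the order was opposite, with 6 higher in POS and 22 in NEG of 29, and on chromosome 21 with 4 and 16 of 23. On these 3 chromosomes the regions not isolated leaned the same way, with 47.7% higher in POS and 26.4% in NEG on chromosome 17, 25.1% and 49.9% on chromosome 19, and 35.2% and 46.5% on chromosome 21. On chromosome 13 they leaned opposite ways, as on chromosome 12. There 29 of 78 isolated regions were higher in POS and 36 in NEG, against 56.9% and 24.5% of the others. DNA copy number in POS and NEG cells was not measured here, and its part in these counts was not tested.

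Neighbouring regions were compared for direction, band by band, with no test between bands. Of isolated regions called together with their nearest neighbour, 688 of 1042 (66.0%) had the neighbour higher in the same subpopulation, 383 in POS and 305 in NEG. The share was 83.3% where the neighbour lay within 10000 bases, 78.6% at 10000 to 50000 bases and 71.4% at 50000 to 100000 bases. Within the isolated regions it was 67.7% at 100000 to 150000 bases, 58.6% at 150000 to 200000, 69.5% at 200000 to 500000 and 60.0% of 35 pairs beyond that. The correlation of the 2 log2 fold changes across regions was 0.639 in the closest band and 0.368 over 1602 isolated regions. All points share the same 5 libraries, and 2 isolated regions can be each other's neighbour.

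**Figure D3:**
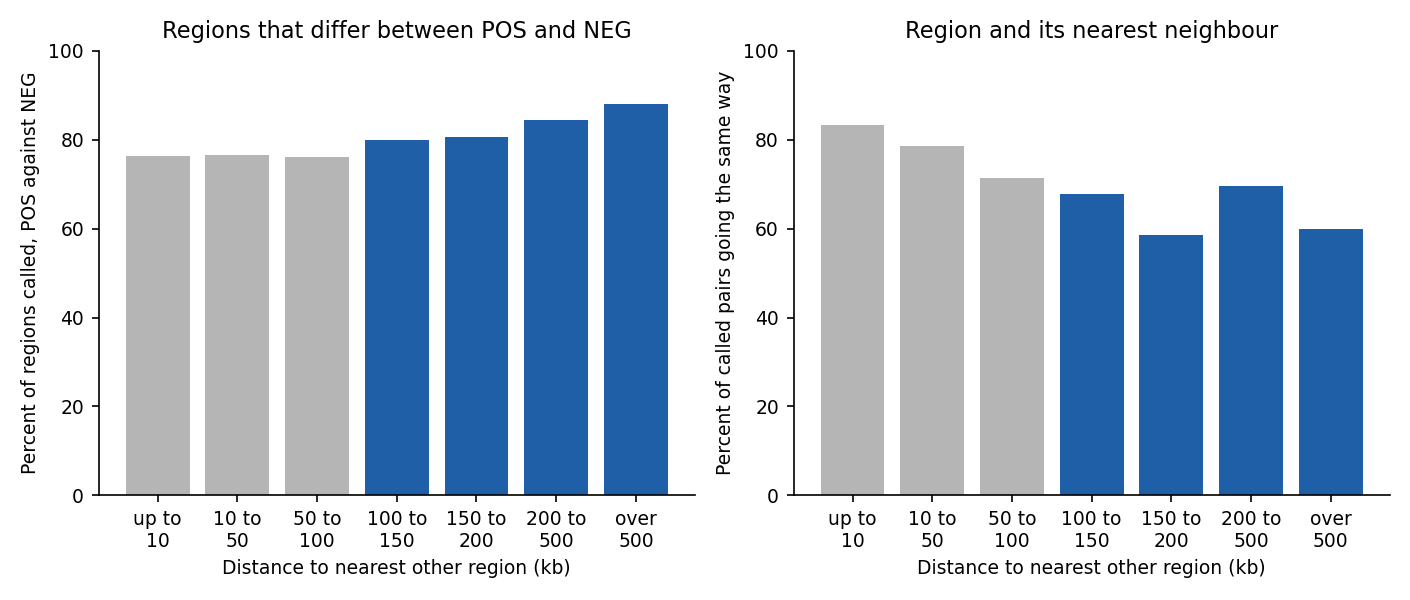
Regions grouped by distance to the nearest other region (kb), with isolated regions in blue and the others in grey. Left, percent called between POS and NEG, from 76.3% in the closest band to 88.1% in the farthest. Right, percent of called region and neighbour pairs that went the same way, from 83.3% in the closest band to 60.0% in the farthest.

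JUNB intervals were found in isolated regions about as often as elsewhere, though their surroundings held fewer. A JUNB site, counted when 50% or more of it lay inside the region, was present in 1234 isolated regions (76.6%) and in 77.8% of regions that were not isolated. Of the 1611, 155 (9.62%) held 2 or more sites, against 10.0% of all regions. Outside the region itself, the 100000 bases on each side held a median of 4 JUNB sites around isolated regions and 15 around the others. In 141 isolated regions these flanks held none, against 58 of the far more numerous others, and 49 isolated regions had no JUNB site inside or in the flanks. By the rule these flanks hold no other listed H3K27ac region, so JUNB sites inside such regions are left out of them. Of 146555 listed JUNB sites, 50248 lay inside an H3K27ac region. The part of the rule in the flank counts was not tested. The shares were also read within each H3K27ac level group, with no test between them. In the lowest level group 61.6% of isolated and 44.8% of other regions held a site, and in the second group 82.4% and 70.7%. The third group had 85.8% and 85.5%. In the fourth group, at 88.2% and 92.2%, and in the highest, at 90.7% and 94.3%, the isolated regions had the smaller share.

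JUNB occupancy differed between POS and NEG at most of these sites. Of 1357 sites tested inside isolated regions, 547 (40.3%) were higher in POS and 444 (32.7%) in NEG, against 28.5% and 29.4% of all 141580 JUNB sites tested and 32.9% each way of the 49730 inside any H3K27ac region. Where both marks were called, they nearly always differed in the same direction. Taking the strongest site of each region, 1202 isolated regions had both marks tested and 834 were called for both. Of these, 470 were higher in POS for both and 341 higher in NEG for both (97.2% together), and 23 went opposite ways. Over all regions called for both, 96.5% went the same way. The correlation of the log2 fold changes across the 1202 regions was 0.891 (Pearson) and 0.909 (Spearman), against 0.870 and 0.876 over 43990 regions. The points share the cell populations compared. Where H3K27ac was higher in POS, JUNB was higher in POS in 78.2% of isolated regions and 68.8% of all regions, and where H3K27ac was higher in NEG, JUNB was higher in NEG in 80.0% and 75.0%.

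The strong POS region chr3:154182053-154183054 held a site with 82.8 and 67.0 CPM of JUNB in POS and 1.07 and 0.526 CPM in NEG, a log2 fold change of 6.44 (adjusted p = 1.3e-69, edgeR). The strongest JUNB signal among the regions named here was in chr9:21293723-21294724, at 158 ± 10.9 CPM in POS (SD, n = 2) and 24.9 ± 3.44 CPM in NEG. In these 2 regions both marks were higher in POS than in NEG libraries. On the NEG side, the strongest site in chrX:111879594-111880595 read 25.3 and 22.8 CPM of JUNB in NEG and had no count in POS, at least 110-fold above the floor of 3 counts over both POS libraries. The site of chrX:124423200-124424201 likewise had no count in POS and 7.36 and 7.18 CPM in NEG (at least 33.3-fold). The pairing had exceptions. Of the 23 regions going opposite ways, 20 had H3K27ac higher in POS, among them chr14:62675948-62676949 (JUNB log2 fold change -0.59, adjusted p = 0.032, edgeR). The other 3 had H3K27ac higher in NEG. They included chr9:92457186-92458187 (log2 fold changes of -1.08 for H3K27ac and 0.62 for JUNB) and chr2:20996256-20997257 (-0.6 and 0.69). No JUNB site lay inside the NEG regions chr20:21961700-21962701 and chr2:5836960-5837961. These 2 differed in H3K27ac by log2 fold changes of -5.46 and -5.82. In the most acetylated region, chr1:36102872-36103873, neither mark was called between POS and NEG (H3K27ac adjusted p = 0.18, JUNB adjusted p = 0.26, edgeR). Its JUNB site read 2.46 and 2.69 CPM in POS and 3.80 and 3.50 CPM in NEG.

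**Figure D4:**
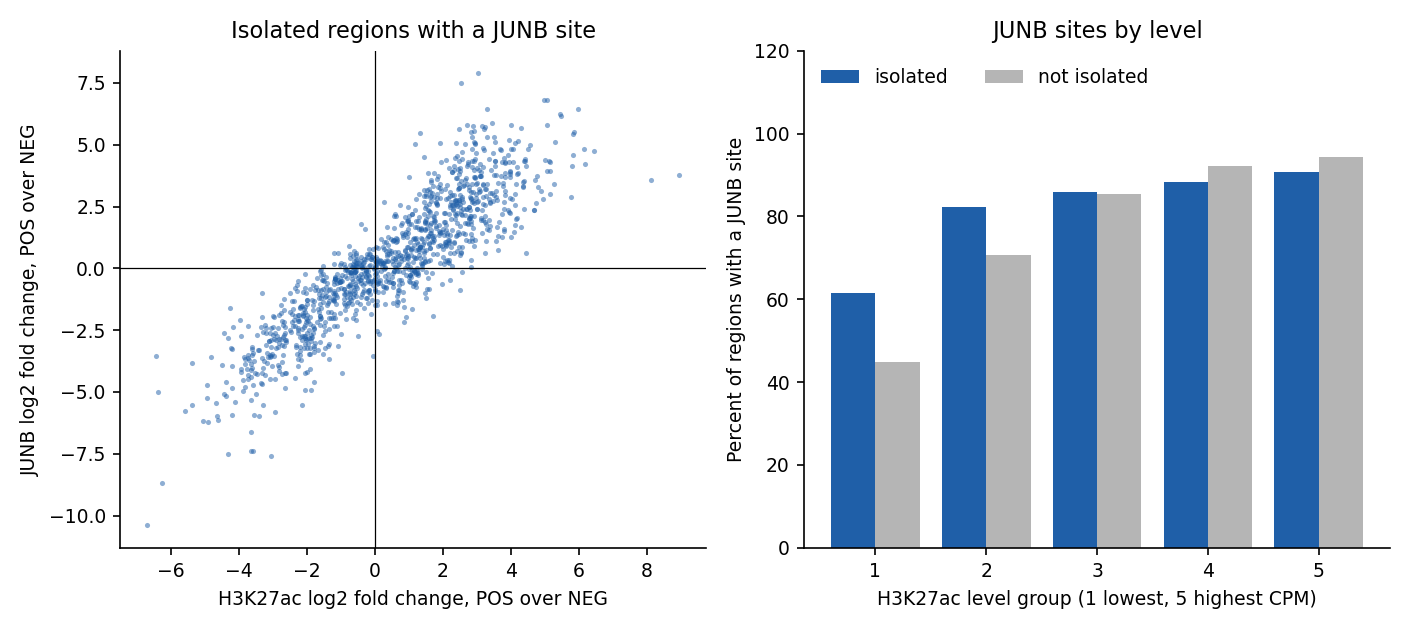
Left, log2 fold change of POS over NEG for H3K27ac (x axis) and for the strongest JUNB site (y axis) in 1202 isolated regions, 1 point each, with a correlation of 0.891. The lowest 2 points are fitted values of sites with no count in POS. Right, percent of isolated (blue) and other (grey) regions with a JUNB site in each H3K27ac level group, at 61.6% and 44.8% in the lowest.

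The responses to trametinib were read from intervals of the other lists that matched an isolated region at 50% reciprocal overlap. The match succeeded for 1103 isolated regions (68.5%) in the acute POS list, 813 (50.5%) in acute NEG, 807 (50.1%) in day 14 POS, 461 (28.6%) in day 14 NEG and 1194 (74.1%) in POSR. Of all POS and NEG regions, 64.2%, 60.8%, 47.9%, 34.5% and 67.3% matched. An unmatched region has no value and may or may not have responded. Matched intervals were isolated in their own list too in 53.1% (POSR) to 85.7% (day 14 NEG) of cases.

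After 24 hours of trametinib in POS cells, 255 of 1099 isolated regions (23.2%) rose and 291 (26.5%) fell. Of all 36599 tested intervals that match a POS and NEG region, 22.3% rose and 32.1% fell, and of all 50345 tested intervals 26.7% and 26.0% did. Changes of 2-fold or more were fewer, with 64 up (5.82%) and 145 down (13.2%), against 5.30% and 13.5% of the matched background. Region chr2:20996169-20997170 rose from 7.65, 6.70 and 5.14 CPM with DMSO to 37.8, 45.5 and 43.0 CPM with trametinib (log2 fold change 2.68 ± 0.16, SE; adjusted p = 9e-27, edgeR). Region chr1:11376358-11377359 rose from 4.11 ± 1.56 to 21.7 ± 3.12 CPM (SD, n = 3). Regions chr13:106465859-106466860 and chr20:3293563-3294564 rose by log2 fold changes of 2.27 and 2.12. Each of the 4 was weak before treatment. Regions were named for large changes with no overlap between the groups, so a weak start partly follows from the choice. Among regions that fell, chr13:31619327-31620328 went from 48.8, 32.5 and 38.5 CPM to 6.17, 7.35 and 5.79 CPM (log2 fold change -2.66 ± 0.16, adjusted p = 6.8e-27, edgeR). Region chr2:49078267-49079268 fell from 34.3 ± 4.71 to 6.46 ± 1.98 CPM, and chr21:31028494-31029495 from 22.7 ± 5.69 to 3.82 ± 1.04 CPM. These 3 had been well above the median isolated region with DMSO, which also partly follows from the choice.

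In NEG cells, with 2 libraries per group, 103 of 813 isolated regions (12.7%) rose at 24 hours and 199 (24.5%) fell. The matched background was 15.0% and 27.7%, and over all 54409 intervals 17.2% and 19.3%. DESeq2 called 39 and 99, and without replicate 1 of the acute NEG trametinib libraries 68 regions rose. Among regions at or above the median level of isolated regions, the largest rise was at chr9:92457185-92458186, from 7.55 and 12.6 CPM to 40.8 and 38.7 CPM (log2 fold change 1.98 ± 0.16, adjusted p = 6.3e-33, edgeR). Region chr19:57812766-57813767 rose from 20.5 and 17.1 to 52.5 and 54.6 CPM. Of the regions that fell, chr9:8365939-8366940 went from 43.9 and 46.0 to 9.30 and 9.68 CPM, and chr15:98311199-98312200 from 19.7 and 23.9 to 5.46 and 4.53 CPM. Groups did not overlap in these 4 regions, as the rule for naming them required. Region chr21:31028475-31029476 fell from 48.3 and 47.4 to 11.9 and 11.1 CPM in NEG, and was the same isolated region that fell in POS.

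By day 14 in POS cells, 234 of 807 isolated regions (29.0%) had risen and 353 (43.7%) had fallen, beside 28.1% and 47.4% of the matched background and 39.5% and 38.2% of all 44304 intervals. Changes of 2-fold or more numbered 136 up (16.9%) and 246 down (30.5%), against 12.8% and 32.5% of the matched background. No untreated day 14 library was used here, so drug and time in culture cannot be told apart. Region chr1:11376329-11377330, which also rose in the acute comparison, rose from 3.57 and 2.99 CPM at day 0 to 84.4 and 77.6 CPM at day 14 (log2 fold change 4.59 ± 0.21, SE; adjusted p = 7.8e-49, edgeR). Region chr2:16607092-16608093 rose from 4.46 and 3.59 to 60.2 and 54.7 CPM. With chr22:35281139-35282140 and chr5:3010600-3011601, which reached 37.1 and 49.0 CPM, these regions went from under 5 CPM to over 30 CPM. Among regions at or above the median level of isolated regions, the largest fall was at chr12:72689539-72690540, from 30.3 and 32.0 to 1.48 and 0.784 CPM (log2 fold change -4.73 ± 0.28, adjusted p = 1.1e-35, edgeR). Region chr9:108838287-108839288 fell from 89.8 and 71.5 to 3.88 and 4.70 CPM.

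In NEG cells at day 14, 87 of 460 isolated regions (18.9%) had risen and 73 (15.9%) had fallen, beside 23.0% and 25.2% of the matched background and 24.8% and 23.8% of all 28179 intervals. DESeq2 called 43 and 28. Region chr8:11025366-11026367 rose from 25.0 and 17.7 to 105 and 101 CPM (log2 fold change 2.24 ± 0.14, adjusted p = 1.1e-22, edgeR), and chr1:71555485-71556486 from 23.0 and 17.3 to 80.6 and 85.1 CPM. Region chr5:59948390-59949391 fell from 37.7 and 33.1 to 9.48 and 10.1 CPM. Region chr18:6055726-6056727, 567803 bases from its neighbour, fell from 69.5 and 68.2 to 22.6 and 22.1 CPM. The libraries of the 2 days did not overlap in any of the 4, as the rule for naming them required.

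**Figure D5:**
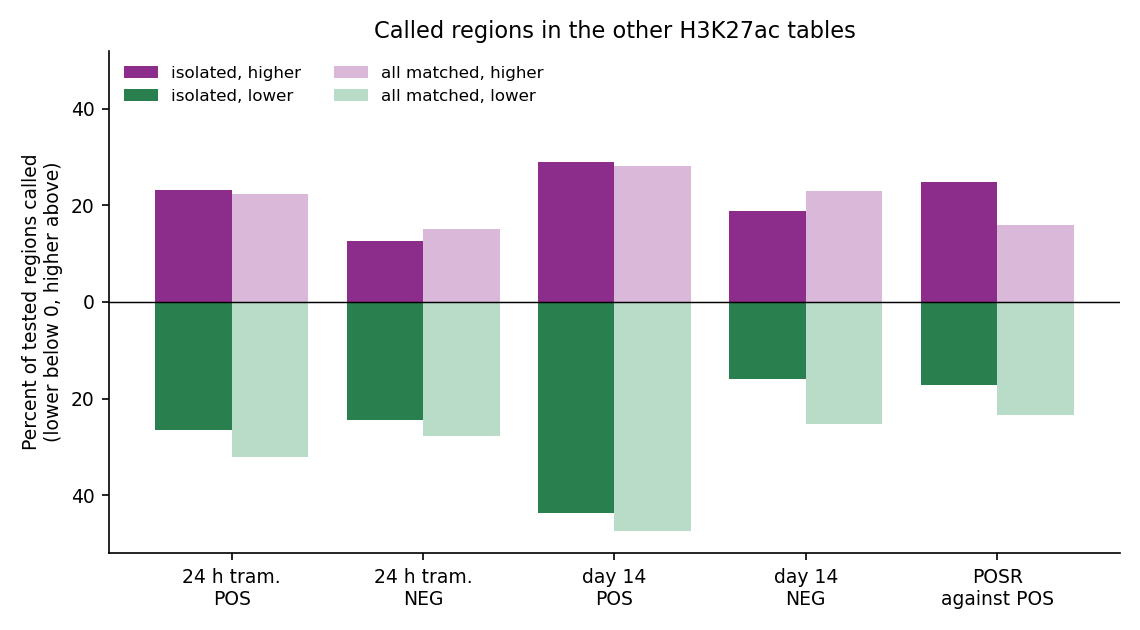
Percent of tested isolated regions called higher (dark purple, above 0) or lower (dark green, below 0) in the 5 other H3K27ac tables, beside all tested intervals that match a POS and NEG region (pale bars). In POSR 24.8% of isolated regions were higher and 17.1% lower, against 15.9% and 23.3% of the matched background.

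The acute and day 14 changes in POS cells were set side by side in comparisons that share no library, and each share is followed by that over all matched regions tested in both. Of 752 isolated regions tested in both, 114 rose in both, which is 55.1% of the 207 that rose at 24 hours and 54.8% of the 208 that rose by day 14. A further 159 fell in both, 82.0% of the 194 acute falls and 47.7% of the 333 day 14 falls. Over all 25242 matched regions the shares were 59.3% and 54.6% for rises and 81.2% and 54.9% for falls. Of the isolated regions, 40 rose at 24 hours and fell by day 14 and 9 did the reverse, against 1023 and 410 of all matched regions. In NEG cells, 429 regions were tested in both. There 31 rose in both (44.9% of 69 and 42.5% of 73) and 49 fell in both (40.2% of 122 and 68.1% of 72), against 53.2% and 46.3% for rises and 50.8% and 67.1% for falls over 17007 matched regions. Between the subpopulations, 373 regions were tested for the acute response in POS and in NEG. Of these, 24 rose in both (35.8% of 67 and 46.2% of 52), 60 fell in both (54.1% of 111 and 77.9% of 77) and 3 went opposite ways. Over 16680 matched regions these shares were 46.1% and 45.5% for rises and 58.0% and 69.3% for falls. Among these matched regions 160 rose in POS and fell in NEG, and 265 did the reverse.

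The day 14 response was also read by the difference between untreated POS and NEG cells, in pairs of comparisons that share no library. Of 527 isolated regions higher in POS, 249 (47.2%) fell and 144 (27.3%) rose by day 14 in POS cells, close to the 47.4% and 29.5% of all matched regions higher in POS. Of 131 isolated regions higher in NEG, 44 (33.6%) fell and 50 (38.2%) rose, against 48.7% and 26.0% of all matched regions higher in NEG. A region higher in NEG has a value here only where it matched an interval of the day 14 POS list. Of the 581 isolated regions higher in NEG, 131 did, and the part of this selection was not tested. In NEG cells at day 14, 58 (19.5%) of 298 isolated regions higher in NEG rose and 46 (15.4%) fell, against 21.4% and 27.7% of all such matched regions. None of these shares was tested against another.

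Of 220 isolated regions tested in all 4 trametinib comparisons, 4 (1.82%) rose in all and 17 (7.73%) fell in all, against 3.03% and 12.2% of the 9953 regions so tested. Region chr3:132522894-132523895 rose from 7.02, 8.53 and 6.39 to 24.1, 22.2 and 22.5 CPM at 24 hours in POS. In its day 14 interval, chr3:132522744-132523745, the level rose from 7.50 and 11.1 to 51.0 and 55.9 CPM in POS and from 3.40 and 4.62 to 26.3 and 28.4 CPM in NEG. Its treated libraries lay above its control libraries in every comparison. Region chr17:21002061-21003062 fell in all 4, from 31.4, 20.1 and 23.1 to 4.83, 5.13 and 5.46 CPM at 24 hours in POS, and from 20.9 and 23.9 to 6.67 and 8.65 CPM in NEG (chr17:21002081-21003082). Region chr14:62675948-62676949 also fell in all 4, by log2 fold changes of -1.55 and -1.62 at 24 hours and -2.96 and -1.62 at day 14 (POS, then NEG). The smaller rise of chr2:27515797-27516798 ranged from 0.77 to 1.01 on the log2 scale.

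The share with a JUNB site was larger among isolated regions called after trametinib than among those not called, a difference that was not tested. In POS at 24 hours a site was present in 87.5% of those that rose, 90.0% of those that fell and 68.9% of those not called. The median H3K27ac level in untreated cells was 8.26, 8.17 and 6.06 CPM in the 3 classes, and the part of level in these shares was not tested. In NEG at 24 hours the shares were 83.5%, 90.5% and 68.9%. The day 14 shares were 83.8%, 89.2% and 72.7% for POS, and for NEG 90.8%, 87.7% and 78.0%. In the POSR comparison, where JUNB was not measured in POSR cells, they were 77.1%, 80.2% and 78.2%. Over all matched regions called regions held a site more often than uncalled ones in the same 4 trametinib comparisons, at 86.6%, 91.5% and 79.9% in POS and 85.0%, 90.8% and 67.4% in NEG at 24 hours. For day 14 in POS they held a site in 87.0%, 92.6% and 86.8%, for day 14 in NEG in 90.8%, 93.4% and 88.4%, and for POSR in 85.6%, 84.6% and 85.2%.

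The response itself was tested between NEG and POS on intervals found in both lists. At 24 hours 64 of 371 isolated regions (17.3%) differed, 37 with the higher response in NEG and 27 with the higher response in POS, against 25.6% of all 18186 intervals tested. DESeq2 called 22 and 16, and without replicate 1 of the NEG DMSO libraries 17 had the higher response in POS. Isolated regions were weaker than all regions in the POS and NEG list, and the part of level in the lower share was not tested. Region chr17:68559374-68560375 rose from 8.33 ± 0.945 to 24.8 ± 4.18 CPM in POS (SD, n = 3) and read 12.7 ± 1.99 and 12.6 ± 0.169 CPM in NEG (n = 2), a difference of -1.65 ± 0.26 (NEG minus POS, log2, SE; adjusted p = 3.5e-07, edgeR). The reverse was found at chr2:186994197-186995198, which fell from 16.5 ± 3.73 to 5.16 ± 1.59 CPM in POS and read 42.7 ± 3.72 and 37.8 ± 3.10 CPM in NEG. At day 14 169 of 260 isolated regions (65.0%) differed, against 62.6% of all 15794 intervals. The response was higher in NEG in 68 and higher in POS in 101. Scaling by total counts alone gave 83 and 75, so the split between the directions depends on the scaling. Region chr1:71555485-71556486 went opposite ways at day 14, from 12.4 ± 1.89 to 3.96 ± 1.71 CPM in POS and from 20.2 ± 4.00 to 82.8 ± 3.21 CPM in NEG (difference 3.16 ± 0.30, adjusted p = 2.4e-24, edgeR). At 24 hours its interval chr1:71555032-71556033 had already fallen in POS and risen in NEG, by log2 fold changes of -0.57 and 0.81.

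Against untreated POS cells, 293 of 1180 isolated regions (24.8%) were higher in POSR and 202 (17.1%) were lower. Of the matched background 15.9% were higher and 23.3% lower, and of all 53240 intervals 17.5% and 18.5%. Without replicate 3 of the POS DMSO libraries, 183 were higher and 125 lower. Fewer still were called in a fit with the replicate number as a block, given in the last section. At 2-fold or more, 134 were higher (11.4%) and 139 lower (11.8%), against 5.11% and 14.3% of the matched background. The share of higher calls was above that of other regions in each of the 5 level groups, from 23.5% of isolated and 11.1% of other regions in the lowest to 36.5% and 17.9% in the highest. POSR1 and POSR2 were pooled in the fit, and their libraries were treated as replicates of the same group. In all 293 higher and all 202 lower regions the means of POSR1 and POSR2 lay on the same side of POS. That partly follows from calling regions on the pooled group. POSR1 and POSR2 differed by over 2-fold from each other in 28 of the 293, with POSR1 higher in 17.

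Region chr14:82854140-82855141, 490646 bases from its neighbour, read 14.8 and 16.9 CPM in POSR1, 22.6 and 18.9 CPM in POSR2 and 0.120, 0.786 and 1.06 CPM in POS (log2 fold change 4.86 ± 0.43, SE; adjusted p = 9.5e-05, edgeR). Region chr9:106126984-106127985 read 17.2 to 24.9 CPM in the 4 POSR libraries and 1.08 to 1.96 CPM in POS. In both regions the 4 POSR libraries were high together. Region chrX:124640471-124641472 was more uneven, at 24.6 and 27.1 CPM in POSR1, 10.1 and 13.0 CPM in POSR2 and 1.21 to 2.53 CPM in POS. Region chr22:35281174-35282175, which also rose by day 14 of trametinib in POS, read 25.3 and 23.2 CPM in POSR1 and 11.5 and 9.33 CPM in POSR2 against 1.81 to 2.55 CPM in POS. Of the lower regions, chr12:101146908-101147909 read 2.27 to 3.35 CPM in POSR and 23.3, 15.7 and 23.9 CPM in POS. Region chr2:133378029-133379030 read 1.41 and 1.55 CPM in POSR1, 6.46 and 7.10 CPM in POSR2 and 22.2 to 27.7 CPM in POS. POSR and POS libraries did not overlap in any of these regions, as the rule for naming them required.

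The POSR calls were unevenly spread over chromosomes, which were again chosen after their values were seen. On chromosome 13, 26 of 49 isolated regions were higher in POSR and 2 lower, against 16.8% and 13.9% of the regions not isolated there. On chromosome 19, 15 of 21 were higher and 0 lower, and the regions not isolated there leaned the same way, with 39.6% higher and 7.27% lower. DNA copy number in POSR cells was not measured here, and its part was not tested. Set against day 14 in POS, which shares no library with the POSR comparison, 774 isolated regions were tested in both. Of these, 93 were higher in POSR and rose by day 14 (44.5% of 209 and 41.7% of 223), 76 were lower in both (67.3% of 113 and 22.4% of 339), and 76 went opposite ways. Over 25813 matched regions tested in both, the shares were 49.9% and 33.4% for the higher regions and 73.3% and 31.5% for the lower. Among these matched regions 1154 were higher in POSR and fell by day 14, and 575 were lower and rose.

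The share of each library's counts that fell in isolated regions was small in every library. It was 1.62% ± 0.0543 in POS (SD, n = 3) and 1.53% ± 0.0220 in NEG (n = 2), with no overlap and an exact two-sided permutation p of 0.2, the smallest this design allows. With a limit of 200000 bases in place of 100000 the difference turned, to -0.0293 percentage points (POS minus NEG). In the POSR table it was 1.65% ± 0.0135 in POSR (n = 4) and 1.50% ± 0.0290 in POS (n = 3; exact two-sided permutation p = 0.0571, the smallest possible). Acute trametinib in POS went with 1.54% against 1.46% with DMSO (exact p = 0.1, the smallest possible). In the other 3 tables the groups differed by less than 0.1 percentage point, with 2 libraries each and a smallest exact p of 0.333. The authors' deposited tables, which use their own test, call 1016 of the 1611 isolated regions between POS and NEG. Here 1306 were called, among them all 1016 in the same direction. For POSR the authors' deposited table calls 503 isolated regions, of which 472 were called here. Fewer were called by the authors in the trametinib comparisons. In POS they call 379 at 24 hours and 375 at day 14, against 546 and 587 here. In NEG they call 80 at 24 hours, where 160 regions have no adjusted p, against 302 here. At day 14 in NEG they call 36, where 9 have no adjusted p, against 160 here.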

How the data were processed

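Per the submitters' processing notes, cutadapt 1.12, STAR 2.5.2b, featureCounts, MACS2 and DESeq2 were used with build hg19. No source used here gives settings or which step each tool performed. Raw counts per region and library were deposited in 7 tables, beside peak lists. The authors' DESeq2 tables hold log2 fold changes, standard errors, p-values and adjusted p-values. They also hold a mean signal over libraries (counts divided by the authors' size factors) and a test score (the Wald statistic), per the file headers. Each library carries its name in a column header. The acute arm's columns carry another drug code and were mapped through the labels' file names. The 10 inputs were not used here.

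Distances were measured between facing edges of listed intervals. Intervals of different lists were matched 1 to 1 at 50% reciprocal overlap. Counts in listed regions (1861227 to 9212006 per H3K27ac library and 4884516 to 8947351 per JUNB library) were fitted per table with edgeR 4.0.16 (TMM, filterByExpr with a minimum count of 10, quasi-likelihood test, Benjamini-Hochberg adjustment over all regions of the table, threshold 0.05) in R 4.3.3. Fits were tested on simulated data. Of the 1611 isolated regions, 1606 passed the filter. The response difference between NEG and POS is an interaction term fitted on intervals shared by both lists. Shares of counts were compared by exact permutation of libraries. Replicates of 1 group differed by more than counting noise (chi-square per degree of freedom 1.101 to 4.788), so none was merged. Replicate numbers were not taken as pairs, since no label names a shared batch or culture for equal numbers.

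Named regions were the 6 largest changes each way between POS and NEG and 4 each way in the other comparisons, among isolated regions past the threshold, at or above the median level of isolated regions tested, and with no overlap between groups. They also included 3 each way for the response differences (same level rule, overlap not asked for), the 5 highest levels, the 3 farthest, the 3 nearest the limit on each side, and up to 4 called the same way in all 4 trametinib comparisons. The regions and lists were chosen with earlier results of these data known. Alternatives covered the distance, overlap, scaling, filter, DESeq2 1.42.0, a replicate block and leaving out each library. Sequencing reads were PCR products without molecular identifiers described, so counts cover reads and not independent molecules.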

Additional observations from a re-analysis of the deposited data

Results flagged for a closer look

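The response to trametinib differed between NEG and POS cells in 64 of 371 isolated regions at 24 hours (17.3%, against 25.6% of all intervals tested) and in 169 of 260 at day 14 (65.0%, against 62.6%), by the test of the difference itself (edgeR quasi-likelihood interaction term, adjusted p under 0.05). At 24 hours the named differences (NEG minus POS, log2) were 1.52 at chr2:186994197-186995198, 1.31 at chr1:71555032-71556033, 1.31 at chr2:15922026-15923027, -1.65 at chr17:68559374-68560375, -1.55 at chr2:20996169-20997170 and -1.35 at chr6:64057491-64058492. Of these, chr2:15922026-15923027 fell in both subpopulations, by log2 fold changes of -2.47 in POS and -1.09 in NEG, and chr2:20996169-20997170 rose in both, by 2.68 and 1.20.

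At day 14 the named differences were 3.45 at chr9:108838287-108839288, 3.16 at chr1:71555485-71556486, 2.53 at chr1:62587417-62588418, -3.22 at chr17:68559505-68560506, -2.97 at chr20:3293510-3294511 and -2.76 at chr4:14857504-14858505. The POS and NEG responses had opposite signs, each past the threshold, at chr1:71555485-71556486, at chr1:62587417-62588418 (-2.15 in POS and 0.90 in NEG) and at chr4:14857504-14858505 (1.43 and -0.82). Region chr17:68559505-68560506 matches the isolated region that differed at 24 hours. Causes were not weighed.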

How the results depend on the processing

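Of 263 alternative values for 30 counts and shares, 245 stayed within 1.5 times the count or within the spread, 17 moved and 1 reversed. DESeq2 (fewer regions tested) gave 39 rises and 99 falls at 24 hours in NEG, 43 and 28 at day 14 in NEG, and 22 and 16 acute response differences (higher in NEG, higher in POS). The causes were not tested. A fit with the replicate number as a block gave 117 higher and 69 lower regions in POSR, and no other count moved by over 1.5 times under the block. The numbers were not taken as pairs, and whether they mark shared batches is not settled here. Same-number correlations in acute POS were 0.119, 0.377 and -0.014, and 3 of 6 libraries correlated best with their own number. No such correlation was computed for POSR, where 2 sets share the numbers. Leaving out 1 library gave 68 to 92 rises at 24 hours in NEG, 183 to 294 higher and 125 to 197 lower regions in POSR, and 17 to 32 acute differences higher in POS. A limit of 50000 bases gave 5002 isolated regions and 37.3% of JUNB sites higher in POS, and 200000 bases gave 421 regions and 38.0% of sites higher in NEG. At 200000 bases the share of counts reversed, to -0.0293 percentage points (POS minus NEG). Counting any overlap gave a JUNB site in 78.7% of isolated regions.

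Of 920 alternative values for 88 named regions or differences, 916 kept direction and side of the threshold, 2 passed it newly and 2 reversed: the log2 fold change of chr3:169489865-169490866, not called, was -0.08 with total counts and ranged from -0.08 (without POS replicate 1) to 0.18 when 1 library was left out. Total counts moved the median of all regions from -0.04 to -0.19 between POS and NEG and from 0.02 to 0.34 for the day 14 response difference. Median counts of 28 to 47 per isolated region limit what can be called in weak regions.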
